A study of Mus musculus with 4 samples.

Results

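The cells described here are bone marrow progenitors that carried transcripts of a small myeloid gene set, most often Prtn3, with an upper limit on S100a8 and S100a9, the transcripts of maturing neutrophils. A cell was a member when it held at least 5 unique molecular identifiers (UMIs, each standing for 1 captured transcript) summed over Prtn3, Ctsg, Elane, Ms4a6c, Ly6c2 and F13a1, and under 20 summed over S100a8 and S100a9. Members were thus chosen by their UMI counts of these 8 genes. This gate chose 1697 of the 8883 cells kept by the authors, or 19.1% (95% exact binomial interval 18.3 to 19.9%). The gate was proposed for granulocyte-monocyte progenitors, the marrow progenitors that give rise to neutrophils and monocytes. The data did not bear that name out for most members, and they are called Prtn3-gated progenitors here.

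Prtn3 (proteinase 3), Elane (neutrophil elastase) and Ctsg (cathepsin G) encode serine proteases that are made early in neutrophil and monocyte development and packed into the primary granules together with Mpo, the myeloperoxidase. Ly6c2 and F13a1 are genes of monocytes and their progenitors, and S100a8 and S100a9 come on later, as neutrophils mature. Lymphoid-primed multipotent progenitors (LMPPs) are known to express low levels of genes of several lineages before they commit, among them Dntt and Il7r on the lymphoid side and granule genes on the myeloid side.

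LMPPs were sorted by flow cytometry from the marrow of C57BL/6 mice and sequenced with 10x Genomics droplets, 1 library per group. The groups were RBPJ uninduced mice, which lacked RBPJ, the DNA-binding partner of activated Notch receptors. The next were RBPJ 3 days induced and RBPJ 6 days induced mice, which lacked it at first and were made to express it with doxycycline, and the last were Control mice, which kept RBPJ throughout. Doxycycline was injected and then given in the drinking water, and the labels carry that text on every library, so whether Control and uninduced mice received it is not known, nor is the number of mice per library. The labels do not say how RBPJ was removed or which promoter drove its return. With 1 library per group there is no replicate and no test between groups, and a group cannot be told apart from its library. Intervals cover counting error only.

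The gated share was 17.0% in uninduced (471 of 2769 cells, 15.6 to 18.5%), 18.0% in 3-day (232 of 1292, 15.9 to 20.2%), 15.7% in 6-day (334 of 2129, 14.2 to 17.3%) and 24.5% in Control cells (660 of 2693, 22.9 to 26.2%). Control stood above the other libraries. A gate on a fixed UMI count admits deeper cells more easily. Gated cells had a median of 10365 UMIs in uninduced, 10226.5 in 3-day, 9824.5 in 6-day and 10819.5 in Control libraries, against 6256.5, 7112.5, 6982 and 7116 in the remaining cells of the same libraries. They also had more detected genes, a median of 2760 against 2063. When each cell was thinned to 4700 UMIs before the gate, leaving out 676, 204, 374 and 351 shallower cells, the share was 8.31% in uninduced (7.17 to 9.58%), 6.62% in 3-day (5.21 to 8.26%), 6.44% in 6-day (5.34 to 7.69%) and 7.94% in Control cells (6.88 to 9.11%). At this depth and a gate of 5 UMIs the intervals of the 4 libraries overlapped, and Control no longer stood above the others. The same cut is stricter on thinned cells, and below it the libraries still differed. The thinned cells numbered 2093 in uninduced, 1088 in 3-day, 1755 in 6-day and 2342 in Control libraries. With under 20 S100a8 and S100a9 UMIs, 861, 422, 789 and 795 of them held no gate UMI. A further 301, 141, 208 and 389 held 3 to 4. Control thus had the smallest share without a gate UMI and the largest at 3 to 4.

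**Figure D1:**
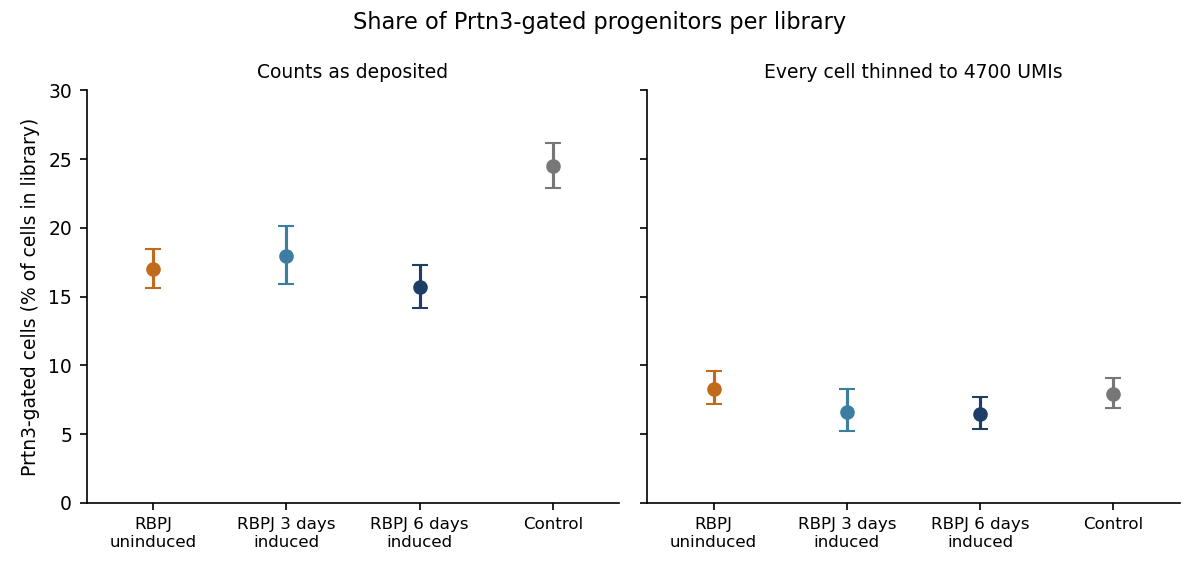
Share of cells that passed the Prtn3 gate in each library, in percent, with counts as deposited (left) and after thinning every cell to 4700 UMIs (right). Points are single libraries and bars are 95% exact binomial intervals. Control lies highest at 24.5% on the left and, at 7.94%, within the other libraries' intervals or close to them on the right.

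Prtn3 dominated the gate. It supplied 71.3% of the members' gate UMIs, was detected in 1683 of 1697 members and was the most abundant gate gene in 1515 of them. Ctsg supplied 13.3% and was detected in 648 members, Ms4a6c 8.98% in 650, Ly6c2 2.77% in 59, Elane 2.63% in 28 and F13a1 1.06% in 73. By library, Prtn3 took 70.8% of gate UMIs in uninduced, 65.8% in 3-day, 67.6% in 6-day and 75.8% in Control members. These are the values that chose the cells and are given as a description.

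Prtn3 was not restricted to the members. Its level was 631 CPM (UMIs of the gene per 1000000 UMIs of all genes, summed over cells) in members and 151 CPM in the remaining cells. Of the remaining cells with under 20 S100a8 and S100a9 UMIs, 57.1% also held a Prtn3 UMI, 6.97% a Ctsg UMI and 0.197% an Elane UMI. Most members lay close to the gate: the median was 7 gate UMIs, 462 members had 10 or more and 87 had 20 or more. There were 441 members with 5 gate UMIs, and 622 cells with 4 lay just outside. The S100a8 and S100a9 limit left 1243 members with no UMI of either gene, and no member held more than 13.

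Fcgr3, Ms4a3 and Cebpe, genes of granulocyte-monocyte progenitors or of granulocyte maturation, were scarce, while Cd34 and Kit were not. Fcgr3, which encodes the Fc receptor CD16 used to sort these progenitors, was at 2.08 CPM in members, against 1.19 CPM in the remaining cells of the same libraries and 0.298 CPM when remaining cells with 20 or more S100a8 and S100a9 UMIs were left out. It was detected in 19 members. Ms4a3, a gene of committed granulocyte-monocyte progenitors, was at 3.39 CPM in members, from UMIs in 27 cells, against 2.73 CPM in the remaining cells and 0.0899 CPM without those rich in S100a8 and S100a9. Its log2 ratio was 0.12 against all remaining cells and 0.72 with those cells left out. Cebpe, a transcription factor of granulocyte maturation, was at 0.219 CPM in members and 5.38 CPM in the remaining cells, or 0.231 CPM without those rich in S100a8 and S100a9. Cd34, the progenitor surface sialomucin, was at 454 CPM in members and 463 CPM in the remaining cells. Kit, the stem cell factor receptor, was at 55.7 CPM in members and 54.6 CPM in the remaining cells. The members thus had Cd34 and Kit at the level of the other sorted cells and little Fcgr3, Ms4a3 or Cebpe.

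Prtn3 and Elane are neighbours on mouse chromosome 10 and are shown here because the gate saw the first in nearly every member and the other in 28. In RefSeq annotation of GRCm38.p6 Prtn3 spans chr10:79879667-79883174 and Elane chr10:79886312-79888216, both on the plus strand, with 3137 bases between them. The 300 bases around each start site (chr10:79879417-79879716 and chr10:79886062-79886361, 250 before the start and 50 from it on, 5′ to 3′, from RefSeq promoters of that build) read as follows, with GAGGAA, a PU.1-like motif, in capitals.
Prtn3: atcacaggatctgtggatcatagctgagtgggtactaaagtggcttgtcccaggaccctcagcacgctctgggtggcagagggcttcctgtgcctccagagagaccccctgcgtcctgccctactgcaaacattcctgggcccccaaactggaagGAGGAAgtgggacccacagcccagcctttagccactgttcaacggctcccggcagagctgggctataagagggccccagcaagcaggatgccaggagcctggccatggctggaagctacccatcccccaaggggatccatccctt
Elane: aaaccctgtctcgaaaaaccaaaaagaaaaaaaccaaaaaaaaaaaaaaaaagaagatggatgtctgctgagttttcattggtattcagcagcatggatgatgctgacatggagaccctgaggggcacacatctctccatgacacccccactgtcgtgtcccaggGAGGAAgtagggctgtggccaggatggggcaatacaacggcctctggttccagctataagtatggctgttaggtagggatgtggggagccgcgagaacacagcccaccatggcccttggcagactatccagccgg
Each window held GAGGAA 1 time, starting at position -95 for Prtn3 and -85 for Elane relative to the first base of the gene. Both strands were searched, and 28.3% of 32851 mouse promoter windows of this length held the same letters. The looser and stricter C/EBP-like patterns TTNCNNAA and TTGCNNAA, held by 40.7% and 10.8% of the windows, occurred in neither. The windows of Ctsg and Mpo, searched in the same way, also held GAGGAA, at -216 for Ctsg and at -247 and -224 for Mpo. Members held 11541 Prtn3 and 426 Elane UMIs in all, and whether the motif bears on these counts was not tested. A motif match is a description of letters and not of binding.

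The next gene upstream, Plppr3, whose product is a phospholipid phosphatase-related membrane protein, ends 4708 bases before Prtn3. It was at 54.2 CPM in members and 36.6 CPM in the remaining cells. Prss57, a granule serine protease of the same cluster, was at 39.7 CPM in members and 40.7 CPM in the remaining cells, and Cfd, beyond Elane, was near 0 in both (0.109 and 0.0775 CPM). Palm and Ptbp1, which lie between Prss57 and Prtn3, were at 29.7 and 94.4 CPM in members and 24.3 and 87.3 CPM in the remaining cells. The log2 ratio of Plppr3 was the largest of these neighbours, at 0.51 (0.36 after thinning), and none was past 1.5-fold.

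Members were divided by which gate genes let them pass. In 1520 members (89.6%) the 3 proteases alone reached 5 UMIs and were at least as abundant as the 3 monocyte genes, in 29 the monocyte genes Ly6c2, F13a1 and Ms4a6c reached 5 and outnumbered the proteases, 1 held Ly6c2 almost alone, and 147 were mixed, passing only on the sum. These are ranges of a count, not cell types: 916 of the protease cells and 7 of the monocyte-gene cells lay within 2 UMIs of the dividing value. The protease class numbered 420 of 471 members in uninduced, 202 of 232 in 3-day, 297 of 334 in 6-day and 601 of 660 in Control libraries. The monocyte-gene class numbered 7, 5, 11 and 6 in the same order.

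**Figure D2:**
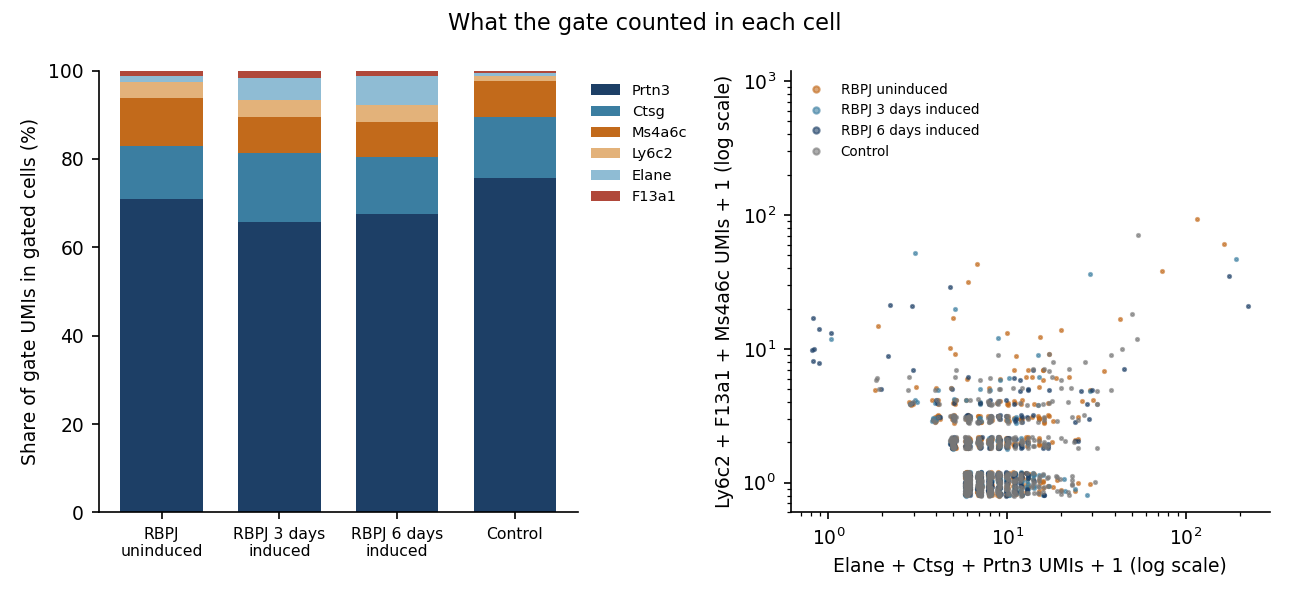
Left, share of gate UMIs in gated cells supplied by each of the 6 gate genes, in percent, per library. Right, each point is a gated cell, with its protease UMIs on the x axis and its monocyte-gene UMIs on the y axis, both plus 1 on log scales with a small random shift, coloured by library. Prtn3 supplies 65.8 to 75.8% in every library, and most cells lie at low counts along the bottom, with few at high counts of either kind.

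Against the remaining cells of the same libraries, with gate and exclusion genes left out, 5 of 4897 compared genes (0.102%) were at least 2-fold higher in members and 17 (0.347%) at least 2-fold lower. Genes were compared when their mean in both populations reached 20 CPM, and folds were taken on CPM + 5. At 1.5-fold, 15 genes (0.306%) were higher and 61 (1.25%) lower. The contrast is the one that chose the members, so these counts carry no test. After thinning, 9 of 4847 genes (0.186%) were at least 2-fold higher in members, and 13 (0.268%) were lower. At 1.5-fold the thinned counts were 25 (0.516%) higher and 38 (0.784%) lower. All 13 lower genes belonged to the 17, while 3 of the 5 higher genes belonged to the 9.

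Mpo, the granule peroxidase that uses hydrogen peroxide to make hypochlorous acid, was the gene outside the gate with the clearest excess. It was at 167 CPM in uninduced, 208 CPM in 3-day, 164 CPM in 6-day and 189 CPM in Control members. In the remaining cells it was at 55.0 CPM in uninduced, 73.4 CPM in 3-day, 49.4 CPM in 6-day and 64.9 CPM in Control libraries. Each library's member value lay above every library's remaining value. The log2 ratio over the 4 libraries was 1.51 (1.44 to 1.64 between libraries, and 1.53 after thinning). It was detected in 877 of the 1697 members, so nearly as many members had no Mpo UMI.

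Ccl9, a CC chemokine made by myeloid cells, was at 170 CPM in uninduced, 163 CPM in 3-day, 134 CPM in 6-day and 106 CPM in Control members. The remaining cells held 59.5, 71.7, 53.2 and 50.2 CPM in the same order, below the member value of every library. The log2 ratio was 1.21 (1.44 after thinning). Lgals1, which encodes the glycan-binding protein galectin-1, was at 241, 246, 266 and 212 CPM in uninduced, 3-day, 6-day and Control members, against 77.6, 114, 92.6 and 107 CPM in the remaining cells. The log2 ratio was 1.23, and 1.43 after thinning. Muc13, a membrane mucin, had the smallest excess of the 4, with a log2 ratio of 1.01 and a range from 0.74 in Control to 1.55 in uninduced libraries. After thinning its ratio was 0.94, just under 2-fold.

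The fifth gene counted as 2-fold higher was Pf4, which encodes platelet factor 4 of megakaryocytes. A single 6-day cell held 2093 of its 2116 member UMIs (98.9%). That cell had 65908 UMIs in all, the most of any member, and passed the gate with 5 gate UMIs, 4 of them Prtn3. Pf4 was therefore not a property of the gated cells as a group.

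Of 10 genes for primary granule contents and protease processing, all compared, 1 (Mpo) was 1.5-fold higher and none lower. The list's median log2 ratio was 0.09, beside 0.02 over all compared genes, and 0.21 after thinning, beside 0.00. Ctsc, the peptidase that activates the granule proteases, was at 35.7 CPM in members and 29.2 CPM in the remaining cells. Srgn, the proteoglycan core of the granules, was at 777 CPM in members and 776 CPM in the remaining cells. Lyz2, the lysozyme of granulocytes and monocytes, had a log2 ratio of 0.43 that depended on what the members were set against: it was 1.31 after thinning and 1.14 when remaining cells rich in S100a8 and S100a9 were left out. It was -0.50 when the monocyte-gene members were left out. With counts as deposited Mpo thus stood apart from the other 9 genes of the list, none of which was past 1.5-fold.

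Among 18 genes of monocyte-committed progenitors 6 were expressed enough to compare, and 2 of them were 1.5-fold higher and none lower, with a median of 0.23. Irf8, a transcription factor needed for monocyte and dendritic cell development, was at 184 CPM in uninduced, 160 CPM in 3-day, 177 CPM in 6-day and 161 CPM in Control members. In the remaining cells it was at 94.9, 81.7, 98.9 and 102 CPM in the same order, below the member value of every library. The log2 ratio was 0.79, and 0.66 after thinning. Thinned members were at 205 CPM in uninduced, 130 CPM in 3-day, 186 CPM in 6-day and 127 CPM (104 to 153) in Control libraries. Thinned remaining cells were at 104, 89.6, 105 and 104 CPM, so the excess was smallest in Control. Single cells did overlap: 2501 of 7186 remaining cells and 847 of 1520 protease-class members held an Irf8 UMI. Anxa2, a calcium-dependent phospholipid-binding protein, was at 45.5 CPM in members and 25.6 CPM in the remaining cells (0.72). Klf4 of the same list went the other way, at 53.1 CPM in uninduced, 29.7 CPM in 6-day and 24.2 CPM in Control members. In the remaining cells it was at 84.9, 35.5 and 40.1 CPM. Ctss, also on the list, was at 36.7 CPM in protease-class members and 49.3 CPM in the remaining cells. Both were at 291 CPM in the 29 monocyte-gene members. After thinning 5 of 8 compared genes of this list were 1.5-fold higher and the median was 0.67. Csf1r, the receptor for the monocyte growth factor CSF-1, was too low to be compared, at 11.4 CPM in members and 4.48 CPM in the remaining cells.

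Genes of neutrophil commitment were few at this level: of 12 only 3 could be compared and none was 1.5-fold different, with a median of 0.11. The remaining cells here included those rich in S100a8 and S100a9, which the gate kept out of the members. As given above, Ms4a3 and Cebpe of this list were lower in the remaining cells once those were left out. The neutrophil and monocyte lists can therefore not be weighed against each other. Gfi1, a repressor that favours the neutrophil fate, was at 10.9 CPM in members and 12.2 CPM in the remaining cells. Csf3r, the receptor for the neutrophil growth factor G-CSF, was at 25.0 CPM in members and 22.7 CPM in the remaining cells. Of 12 compared myeloid transcription factors only Irf8 was past 1.5-fold. Spi1, which encodes PU.1, was at 167 CPM in members and 154 CPM in the remaining cells, with a log2 ratio of 0.11. Cebpa, which encodes C/EBPα and is needed to form granulocyte-monocyte progenitors, had a ratio of 0.10 (0.54 after thinning).

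**Figure D3:**
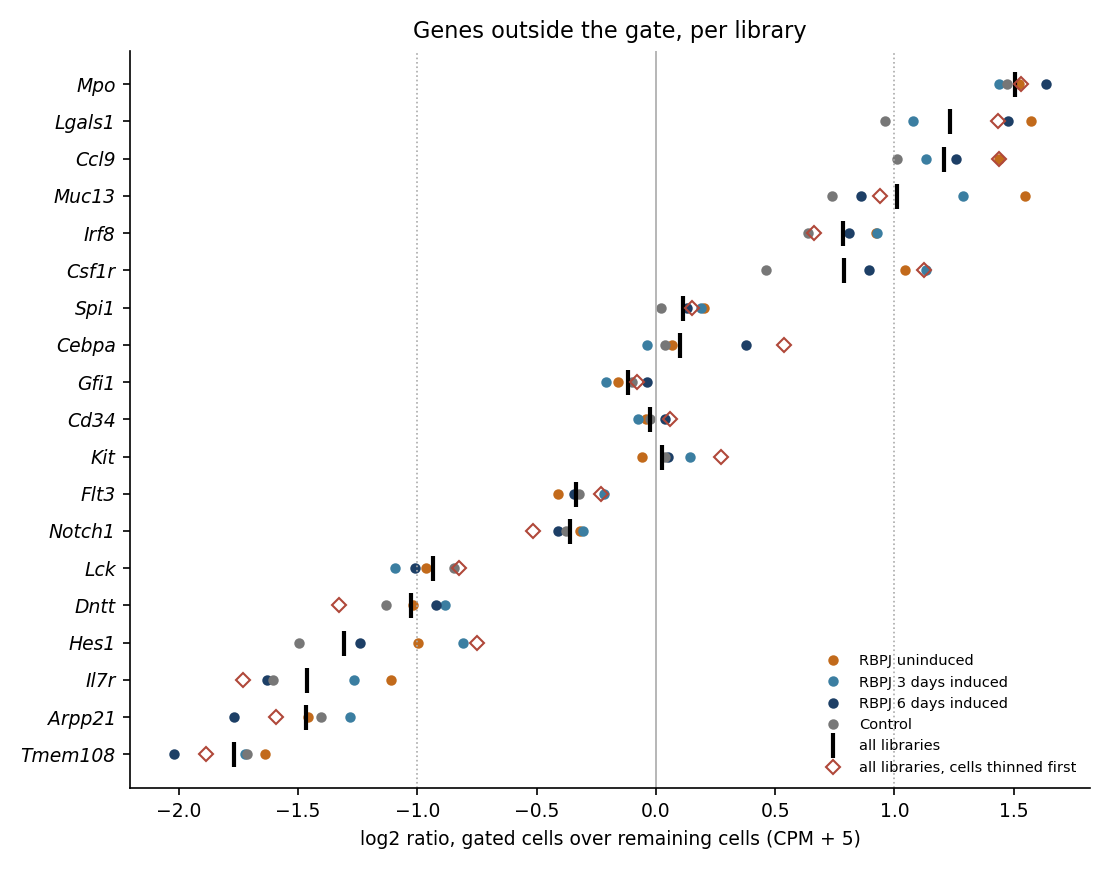
Log2 ratio of gated over remaining cells, on CPM + 5, for genes outside the gate. Dots are single libraries, black bars all 4 libraries and open diamonds all libraries with cells thinned first, and dotted lines mark 2-fold. Mpo, Lgals1, Ccl9 and Muc13 lie right of 0 in every library, Cd34 and Kit lie near 0, and Dntt, Hes1, Il7r, Arpp21 and Tmem108 lie left of 0 in every library.

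On the lymphoid side the gated cells were lower. Dntt, the terminal transferase that adds bases to antigen receptor joints, was at 371 CPM in uninduced, 501 CPM in 3-day, 489 CPM in 6-day and 422 CPM in Control members. The remaining cells held 758, 928, 930 and 930 CPM in the same order. No library's member value reached any library's remaining value, and the log2 ratio was -1.02, or -1.33 after thinning. Dntt was still detected in 1257 of the 1697 members.

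Il7r, the interleukin-7 receptor chain of lymphoid progenitors, was at 7.47 CPM in uninduced, 4.90 CPM in 3-day, 8.95 CPM in 6-day and 8.49 CPM in Control members. In the remaining cells it was at 21.9, 18.8, 38.2 and 36.1 CPM. It missed the minimum level for the count, and its log2 ratio was -1.46 (-1.73 after thinning). Ccr9, a chemokine receptor of thymus-seeding progenitors, was at 2.02 CPM in members and 17.2 CPM in the remaining cells. Lck, the T cell tyrosine kinase, had a log2 ratio of -0.93. Of 12 compared lymphoid priming genes 2, Dntt and Lck, were 1.5-fold lower and none higher, and the median was -0.26 (-0.27 after thinning).

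Flt3, the cytokine receptor that defines LMPPs in the sort, was at 151 CPM in uninduced, 184 CPM in 3-day, 164 CPM in 6-day and 189 CPM in Control members, against 203, 214, 210 and 238 CPM in the remaining cells. It was lower in the members of every library, but by less than 1.5-fold (log2 ratio -0.33). Among the lymphoid genes named here the ratio was closest to 0 for Flt3. It was farthest from 0 for Ccr9 with counts as deposited (-1.66, from 37 UMIs in 15 members), and for Il7r after thinning (-1.73, against -1.19 for Ccr9).

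The genes with the lowest ratios fell into groups of different kinds. Camp, Ngp, Lcn2 and Wfdc21, proteins of secondary neutrophil granules or of maturing neutrophils, had log2 ratios of -5.44, -5.25, -3.77 and -3.45. When remaining cells with 20 or more S100a8 and S100a9 UMIs were left out, the ratios were 0.06, 0.06, 0.08 and -0.01. The low ratios of these 4 were thus not seen against cells that met the same S100a8 and S100a9 limit as the members. The same group gave the secondary granule list its 4 lower genes of 6 compared and its median of -3.61. Hba-a1, Hba-a2, Hbb-bs and Hbb-bt, the globins of red cells, were the 4 lower genes of the 6 compared on the erythroid list, whose median was -2.41.

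Outside these groups, Tmem108, a transmembrane protein, was at 8.27 CPM in uninduced, 7.75 CPM in 3-day, 11.3 CPM in 6-day and 11.0 CPM in Control members, against 36.4, 37.1, 61.0 and 47.6 CPM in the remaining cells. Its log2 ratio was -1.77, or -1.89 after thinning. Arpp21, which encodes a cAMP-regulated phosphoprotein, was at 15.9 CPM in members and 52.8 CPM in the remaining cells (-1.47). Cox6a2, a subunit of cytochrome c oxidase, was at 29.3 CPM in members and 70.7 CPM in the remaining cells (-1.14). Mycn, a MYC-family transcription factor, had a ratio of -1.10, and -0.62 after thinning. AA467197 had a ratio of -1.36. Cd74, the invariant chain of MHC class II, had a ratio of -1.21 with counts as deposited and -0.47 after thinning, and 1 cell held 15.4% of its member UMIs.

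The differences ran along the gate count rather than appearing only at its threshold. Cells were thinned to 4700 UMIs, and those with under 20 S100a8 and S100a9 UMIs after thinning were sorted by their gate UMIs. The bins of 0, 1, 2, 3 to 4, 5 to 9 and 10 or more held 2867, 1728, 1050, 1039, 495 and 50 cells. Dntt was at 1054, 749, 567, 420, 327 and 153 CPM over these bins. It was thus lower in each bin than in the one before, including the bins below the gate. Mpo was at 53.2, 65.6, 80.0, 98.9, 159 and 702 CPM, with an exact Poisson interval of 599 to 818 CPM in the last bin. Lgals1 was at 84.8 CPM in the first bin, 215 CPM at 5 to 9 and 1098 CPM at 10 or more. Both therefore differed most between the last 2 bins.

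Ccl9 was at 43.0, 68.5, 101, 123, 192 and 285 CPM, a more even gradient than that of Mpo. Muc13 was at 9.28 CPM in the first bin, 36.1 CPM at 5 to 9 and 34.0 CPM at 10 or more. Irf8 was at 96.5 CPM in the first bin, 146 CPM at 5 to 9 and 349 CPM at 10 or more. Il7r was at 38.8, 18.5, 11.6, 2.66 and 3.87 CPM in the first 5 bins and was not detected in the last, where the interval reached 15.7 CPM. Cd34 ranged from 434 to 482 CPM with no order. Elane, a gate gene itself, was at 1.02 CPM or less in every bin below 10 and at 404 CPM at 10 or more. The last bin held 16 cells from uninduced, 8 from 3-day, 11 from 6-day and 15 from Control libraries. For Mpo, Lgals1 and Irf8 these 50 cells differed from the 495 below them by more than those differed from the cells outside the gate. Few cells per library carried this, and Mpo in the last bin was at 372, 1197, 1064 and 525 CPM in the same order. These cells were also deeper before thinning, with a median of 13326.5 UMIs against 8775 in the bin of 5 to 9. Elane UMIs are among those that defined the bins, so its values are a description of the gate.

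**Figure D4:**
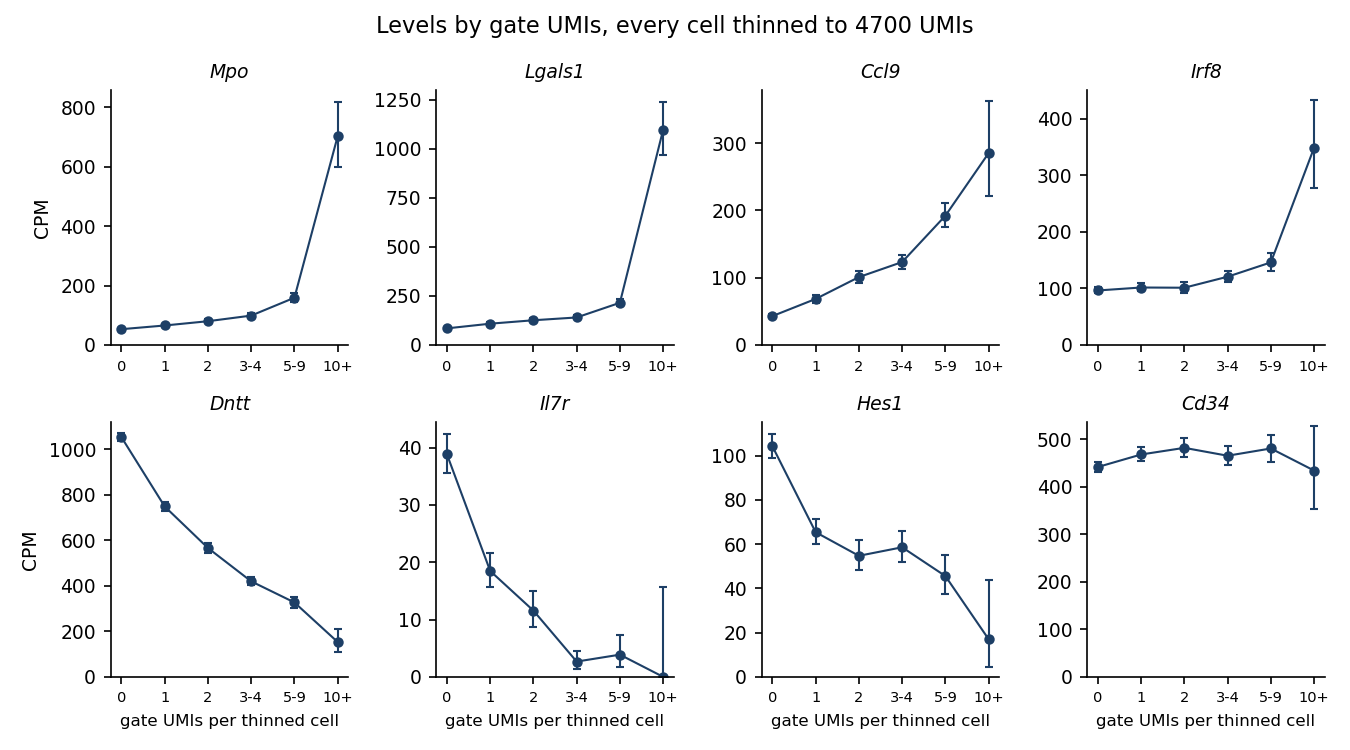
Level in CPM (y axes, from 0) of 8 genes in cells sorted by gate UMIs (x axes), after every cell was thinned to 4700 UMIs. Points pool the cells of the 4 libraries and bars are 95% exact Poisson intervals. Dntt, Il7r and Hes1 are highest in cells with no gate UMI, Mpo and Lgals1 are steepest at 10 or more, and Cd34 is nearly level.

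A few members carried the genes the gate was built for. Only 9 cells held 3 or more Elane UMIs, 2 in the uninduced, 2 in the 3-day, 4 in the 6-day and 1 in the Control library, and they held 403 of the members' 426 Elane UMIs. In these 9 cells Mpo was at 2039 CPM (1817 to 2282), against 59.3 CPM in the remaining cells, and Ms4a3 at 268 CPM. Cd34 was at 228 CPM and Flt3 at 33.5 CPM, both below the members as a whole. Their median was 18798 UMIs. All 9 held Prtn3, 8 held Ly6c2 and 8 F13a1, so proteases and monocyte genes were found in the same cells. Pooled, these cells carried genes of the proposed label, and they were 0.530% of the members. Elane, Prtn3, Ly6c2 and F13a1 are gate genes, and the pooled levels were uneven. A single cell held 115 of the 304 Mpo UMIs and another held none, and Ms4a3 was detected in 5 of the 9. Among the 9, 1 cell had 3 Elane, 2 Prtn3 and 6 Dntt UMIs and none of Ctsg, Ly6c2, F13a1 or Ms4a6c. Remaining cells held 750 Elane UMIs in 26 cells, 13.8 CPM against 23.3 CPM in members, and 0.251 CPM once cells rich in S100a8 and S100a9 were left out.

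A set of 19 members passed through the monocyte genes and held 3 or more Ly6c2 UMIs. It shared the Control cell and a 3-day cell with the 9 cells above. The 19 were 4 in the uninduced, 5 in the 3-day, 9 in the 6-day and 1 in the Control library. Ccr2, the chemokine receptor by which monocytes leave the marrow, was at 349 CPM (253 to 471) in them and 2.27 CPM in the remaining cells. Cybb, a subunit of the phagocyte NADPH oxidase, was at 366 CPM and 5.51 CPM, and S100a4, a calcium-binding protein, at 942 CPM and 7.35 CPM. Cd34 was at 48.7 CPM and Flt3 at 8.12 CPM, from 6 and 1 UMIs. With a median of 4907 UMIs they were shallower than the members as a whole. The other 11 monocyte-gene cells held Irf8 at 602 CPM in 10 cells, Cd34 at 373 CPM in 9 and Flt3 at 187 CPM in 6, and Cd34 and Flt3 were thus higher than in the 19. Cd74 was at 1518 CPM in the 11, but from UMIs in only 4 of them.

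Some markers of other cell types were not detected in members, though other genes of the same lists were. Members held UMIs of 8 of 12 T cell, 10 of 14 B and plasma cell and 13 of 16 NK and innate lymphoid genes. They held 7 of 14 basophil, eosinophil and mast cell, 12 of 14 mature neutrophil and 14 of 16 erythroid genes. Of macrophage and of stroma genes they held 8 of 12 each, and of conventional and plasmacytoid dendritic cell genes 14 of 16 and 13 of 14. Cd3e had no UMI in the remaining cells either. Cd3e, Cd3g, Cd8a and Bcl11b of T cells, Pax5, Ms4a1 and Cd22 of B cells, Ncr1, Eomes and Tbx21 of NK cells and Prss34, Ms4a2, Fcer1a, Epx, Il5ra, Cma1 and Mcpt4 of basophils, eosinophils and mast cells had no UMI in any member. Nor did Ly6g and Mmp9 of mature neutrophils, Alas2 and Ermap of red cell precursors, Mrc1, Marco, Timd4 and Mertk of macrophages, Zbtb46 and Cd209a of dendritic cells, Klk1 of plasmacytoid dendritic cells, or Col1a1, Col3a1, Cdh5 and Pdgfra of stroma and endothelium. The summed level of the 12 macrophage genes was 6.64 to 12.5 CPM in members of the 4 libraries and 9.22 to 17.8 CPM in remaining cells. The summed megakaryocyte list was 102 to 811 CPM in members, the highest value coming from the library of the single Pf4-rich cell, and 108 to 125 CPM in remaining cells. On the conventional dendritic cell list 3 of 6 compared genes were 1.5-fold lower and none higher (median -0.47), and none was after thinning. The plasmacytoid dendritic cell list of 7 compared genes had 1 higher, Irf8, and 1 lower, Cox6a2. Both compared T cell genes, Lck and Lat, were 1.5-fold lower, and after thinning only Lck was (Lat -0.53).

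Some genes on these lists were not low, and Nkg7, Ccl5 and Car2 are named after their values were seen. Nkg7, a granule membrane protein of cytotoxic cells, was at 164 CPM in members, from UMIs in 1180 cells, and 168 CPM in the remaining cells. Ccl5, a chemokine of T and NK cells, was at 30.7 CPM in members and 24.7 CPM in the remaining cells, with 57.8% of its member UMIs in 1 cell. The 16 NK and innate lymphoid genes summed to 180 to 367 CPM in members of the 4 libraries and 212 to 270 CPM in remaining cells. The highest member value was in the 3-day library, where Ccl5 was at 169 CPM in members and 42.1 CPM in the remaining cells. The single Ccl5-rich cell was in this library, and most of the 169 CPM came from it. The 16 erythroid genes summed to 237 to 284 CPM in members and 359 to 1126 CPM in remaining cells, and Car2, a carbonic anhydrase, gave 192 CPM of the members' 264 CPM in all.

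Ribosomal protein genes (median log2 ratio -0.01), mitochondrially encoded genes (0.03), nuclear oxidative phosphorylation genes (0.11) and genes of endoplasmic reticulum folding and secretion (0.09) had no member past 1.5-fold. The same held for interferon response genes, with a median of -0.07. Of 11 compared stem cell genes 1, Mycn, was 1.5-fold lower (median -0.12, and 0.18 after thinning). Immediate early and heat shock genes, which respond to handling, had 3 of 19 lower and none higher, with a median of -0.43 (-0.22 after thinning). Among chemokine and NADPH oxidase genes Ccl9 was higher and Ccl4 lower at 1.5-fold.

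The medians of the cell cycle lists changed sign with depth. The 29 compared G2 and M phase genes had a median log2 ratio of 0.35 with counts as deposited, -0.21 after thinning, when 25 could be compared, and 0.07 when members of over 2 times their library's median UMIs, 277 cells, were left out. The 27 compared S phase genes had medians of 0.20 as deposited and -0.02 after thinning. Mki67, the proliferation antigen, was at 99.7 CPM in members and 74.9 CPM in the remaining cells as deposited, and its log2 ratio after thinning was -0.21. No direction for cycling can be read from these values.

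Rbpj, the gene removed and restored in this study, was at 12.1 CPM in uninduced, 634 CPM in 3-day, 610 CPM in 6-day and 17.0 CPM in Control members. In the remaining cells it was at 10.9, 470, 454 and 18.2 CPM in the same order. Induced members were far above both other groups, as were induced remaining cells. Uninduced members were below Control members by less than 1.5-fold (log2 ratio -0.36), and since the part of the gene that was removed is not known from the labels, these UMIs do not check the removal. After thinning the induced values were 517 CPM in 3-day and 429 CPM in 6-day members, against 459 and 426 CPM in the remaining cells, so the higher Rbpj of induced members was smaller at equal depth.

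Hes1, a repressor gene switched on by Notch and RBPJ, followed the groups in members as in the other cells. It was at 8.07 CPM in uninduced, 25.7 CPM in 3-day, 59.2 CPM in 6-day and 37.2 CPM in Control members. In the remaining cells it was at 21.1, 48.8, 147 and 114 CPM. Within each library the members were lower, and both populations had their lowest value in uninduced and their highest in 6-day libraries. The log2 ratio of members over remaining cells was -1.31 (-1.50 to -0.81 between libraries), and -0.75 after thinning. In the 3-day members 1 cell held 25.4% of 63 Hes1 UMIs, so that value rests on few cells. Hes1 was detected in 228 members in all.

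Notch1, the main Notch receptor of early lymphoid progenitors, was at 42.2 CPM in uninduced, 35.9 CPM in 3-day, 42.4 CPM in 6-day and 45.9 CPM in Control members. The remaining cells held 53.8, 45.5, 58.1 and 61.2 CPM. Notch1 was lower in the members of each library, by less than 1.5-fold (-0.36, and -0.52 after thinning). Notch2 was at 23.7 CPM in members and 30.5 CPM in the remaining cells. Of 5 compared Notch target genes only Hes1 was past 1.5-fold, and none of 11 compared Notch pathway components was (medians 0.03 and -0.10).

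**Figure D5:**
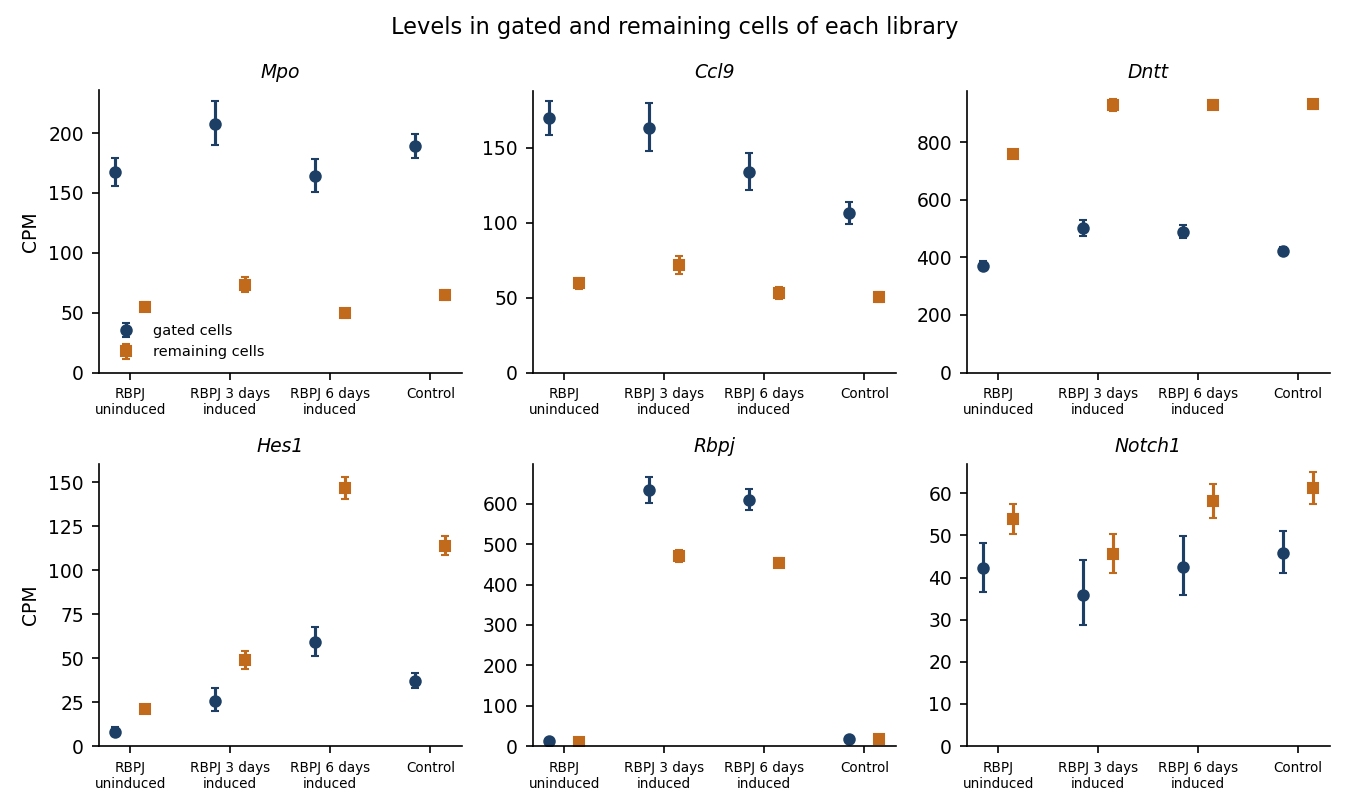
Level in CPM (y axes, from 0) of 6 genes in gated cells (circles) and remaining cells (squares) of each library, with 95% exact Poisson intervals. Mpo and Ccl9 are higher and Dntt, Hes1 and Notch1 lower in the gated cells of every library. Rbpj is at 610 CPM or more in gated cells of both induced libraries and at 17.0 CPM or less in those of the other libraries.

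Between libraries few genes differed by 2-fold within the gated cells. In uninduced against Control members 5 of 4897 genes (0.102%) were 2-fold higher and 3 (0.0613%) lower, beside 16 of 4916 (0.325%) and 4 (0.0814%) in the remaining cells. Cxcl2, a neutrophil-attracting chemokine, was at 67.2 CPM in uninduced and 20.6 CPM in Control members, and at 71.7 and 26.1 CPM in the remaining cells. Klf2, a transcription factor of quiescence and trafficking, was at 338 CPM in uninduced and 139 CPM in Control members, and at 638 and 188 CPM in the remaining cells. Hes1 was the lowest, with a log2 ratio of -1.69 in members and -2.19 in remaining cells. The primary granule gene Mpo was not among them (167 CPM in uninduced and 189 CPM in Control members).

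After 3 days of induction 7 of 4774 genes (0.147%) were 2-fold higher than in uninduced members and 4 (0.0838%) lower. In the remaining cells 6 of 4810 (0.125%) were higher and 6 (0.125%) lower. Beside Rbpj (log2 ratio 5.22) and Hes1 (1.23), the higher genes included heat shock genes: Hspa1a was at 362 CPM in 3-day and 39.1 CPM in uninduced members, and at 474 and 61.9 CPM in the remaining cells. After 6 days 5 of 4799 genes (0.104%) were higher than in uninduced members and 3 (0.0625%) lower, beside 3 of 4815 (0.0623%) and 7 (0.145%) in the remaining cells. Hspa1a was then at 15.9 CPM, below the uninduced members. Klf2 was at 115 CPM in 6-day and 338 CPM in uninduced members. Dntt was at 489 CPM in 6-day and 371 CPM in uninduced members, and Ccl9 at 134 and 170 CPM, neither past 2-fold. Setting 6-day against 3-day members, 5 of 4808 genes (0.104%) were higher and 11 (0.229%) lower, beside 6 of 4788 (0.125%) and 9 (0.188%) in the remaining cells. Setting 6-day against Control members, 8 of 4887 genes (0.164%) were higher and 1 (0.0205%) lower, beside 11 of 4892 (0.225%) and none in the remaining cells. S100a6, a calcium-binding protein, was at 63.5 CPM in 6-day and 23.8 CPM in Control members, and at 32.2 and 25.0 CPM in the remaining cells. H2-Aa, an MHC class II chain, was just short of 2-fold lower, at 19.6 CPM in 6-day and 41.2 CPM in Control members. The counts of higher genes in 6-day members include Pf4. Each library enters more than 1 of these comparisons.

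RNA outside cells also held gate transcripts. Barcodes of 10 to 100 UMIs, which hold mostly RNA free in the suspension, had 387 CPM of gate genes in the uninduced, 402 CPM in the 3-day, 337 CPM in the 6-day and 364 CPM in the Control library. A member of median depth made of such RNA alone would hold 4.01, 4.11, 3.31 and 3.94 gate UMIs in the same order, just under the gate of 5. All kept cells of these libraries had 380, 425, 334 and 381 CPM of gate genes, close to the level of the free RNA. The 11 kept cells with at least 100 haemoglobin UMIs held 3 gate UMIs in all (34.5 CPM) at a median of 5494 UMIs. Of these 11 cells 2 had any gate UMI and none was a member. Their level was below that of the free RNA in each library. Whether free RNA took members past the gate was not tested. Between libraries 49 kept cells shared a barcode, where 39.2 would be shared by random draws, and 3 barcodes were shared among members.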

How the data were processed

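The authors deposited, per library, a matrix of UMI counts for 27998 genes and 737280 barcodes, and a table of log2 values for the cells they kept. Per the submitters' processing notes, the tools included Seurat and the build was mm10, both without further detail. What aligned and counted the reads, and on which annotation, was not given in the sources used here. As deposited, the log2 tables proved, for 300 checked genes, to be log2 of the count divided by a factor of the cell, plus 1, and served only to list the cells, while counts were read from the matrices. No other filter on cells was applied and no doublet caller was run.

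The members, the 29 gene lists beside the gate and exclusion genes, and the comparisons were chosen with earlier results of these data known. UMIs were summed over cells and scaled to CPM. Ratios are log2 of CPM + 5 in members over the mean of the remaining cells' CPM per library, weighted by the members' UMIs, for genes with a mean of 20 CPM or more. Levels given for all remaining cells of a named gene are this weighted mean, except for Prtn3 and the small sets of cells, where remaining cells were summed. Thinning drew 4700 UMIs from each cell with a fixed seed, and its use for ratios was chosen after seeing the data. Intervals are 95% exact Poisson or Clopper-Pearson. No test was made, since the members were chosen by the same contrast and each group has 1 library.

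Named genes were those with the 15 highest and 10 lowest ratios past 2-fold, in the same direction in every library and with no cell holding over 20% of UMIs, leaving out haemoglobin, sex-linked and antigen receptor genes. Added to them were up to 4 genes of each list each way at 1.5-fold, Rbpj, Hes1, Notch1 and Notch2, and list genes that bear on the label, of which some are not reported here. The genes of the small sets of cells, the neighbours of Prtn3 and the genes shown over bins were chosen after their values were seen. Of the gene symbols 56 name more than 1 identifier. The ratio was tested on simulated counts. Python 3.11.15, numpy 2.4.6, pandas 2.3.3, scipy 1.17.1 and matplotlib 3.10.9 were used.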

Additional observations from a re-analysis of the deposited data

Results flagged for a closer look

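Pf4 differed in direction between libraries: its log2 ratio of gated over remaining cells was 6.40 in the 6-day library, from the single cell described above, and -0.54 in the uninduced library. Ms4a3 had a ratio of 0.85 in its highest and -0.99 in its lowest library, on a level of 3.39 CPM in members of all libraries, from UMIs in 27 cells. Neither difference between libraries was tested. Barcodes of at least 500 UMIs that the authors did not keep also passed the gate, 4 in the uninduced, 0 in the 3-day, 1 in the 6-day and 5 in the Control library.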

How the results depend on the processing

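No paired analysis was possible because a group is a single library. Share of members: in all libraries it was 35.7% at a gate minimum of 3 UMIs, 5.20% at 10, 17.2% with the 3 proteases alone, 16.0% without members over 2 times the library median UMIs and 7.49% after thinning. In uninduced cells these were 32.2%, 5.20%, 15.3%, 13.4% and 8.31%, in 6-day cells 30.4%, 4.23%, 14.0%, 12.96% and 6.44%, and in Control cells 43.4%, 6.16%, 22.4%, 21.0% and 7.94%. In 3-day cells they were 36.0%, 4.80%, 15.8% and, after thinning, 6.62%. Genes 2-fold higher numbered 17 at a gate minimum of 10, 13 with no upper limit on S100a8 and S100a9, 9 after thinning, 15 at 1.5-fold and 1 at 3-fold. Genes lower numbered 38 at a gate minimum of 10, 33 with no minimum level, 8 at a minimum of 50 CPM, 61 at 1.5-fold and 9 at 3-fold. The primary granule median was 0.30 at a gate minimum of 10, 0.17 with no S100a8 and S100a9 limit and 0.21 after thinning. The monocyte-committed median was 0.87 and 0.67, for the gate of 10 and after thinning. The lymphoid priming median was -0.41 at the gate of 10 and -0.36 with no minimum level. The G2 and M phase median was 0.56 at the gate of 10, 0.068 without deep members and -0.21 after thinning; the cause was not tested in any of these. Of 29 named genes 24 kept their sign under each alternative that gave them a value, and Cd34, Kit, Lyz2, Mki67 and Top2a did not. Leaving out the 87 members of 20 or more gate UMIs, an alternative chosen after seeing the data, left Mpo at 1.13, Lgals1 at 0.93 and Irf8 at 0.63, and Lyz2 at -0.11. A gene of few UMIs per cell, such as Elane, cannot be called absent in a cell at these depths.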
